A study of Mus musculus with 36 samples.

Results

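EYFP and Cre are the 2 transgene transcripts of this mouse model of salivary gland tumors, and they are described here among the 31102 genes named in the single-cell tables. They were taken by name from the count tables of 26 Drop-seq glands and 4 CITE-seq glands, and they were also read in 2 bulk libraries. Drop-seq captures single cells in droplets with barcoded beads and counts transcripts by their unique molecular identifiers (UMIs), and CITE-seq adds antibody tags to such a library. All mice had a C57BL/6 background and, by the study's methods, carried Cre under the K14 promoter (K14-Cre) and the Cre-inducible R26 EYFP reporter. Double-mutant mice carried in addition the β-catenin gain-of-function allele and the Bmpr1a loss-of-function allele, both of which are switched by Cre. The labels call 11 of the 12 Drop-seq controls wildtype, and they do not give the number of reporter or Cre copies in any animal. There were 6 control and 7 double-mutant glands at postnatal day 40 (P40), 6 control and 7 double-mutant glands at P90, and 2 CITE-seq glands of each genotype at P70, with 1 submandibular gland per library. Bulk RNA came from a control gland (P70) and from a double-mutant gland (P100), with 1 library each.

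In this kind of reporter a stop cassette in the Rosa26 locus blocks the fluorescent protein until Cre, a site-specific recombinase, cuts it out. The change is permanent and is inherited by all daughter cells, so EYFP marks cells whose ancestors once had Cre, while the Cre transcript itself marks cells in which its promoter is in use now. Krt14, the keratin whose promoter drives this Cre, is known as a gene of basal and myoepithelial cells of glandular epithelium, and the Rosa26 promoter is known to work in most cell types. In the mm10 (GRCm38) genome, Krt14 lies on chromosome 11 from 100203162 to 100207548 on the minus strand. The Rosa26 transcript Gt(ROSA)26Sor, a non-coding RNA, lies on chromosome 6 from 113067428 to 113077333 on the minus strand, and its end overlaps that of Thumpd3 on the plus strand. The next gene on its other side is Setd5. EYFP and Cre have no place in the mouse genome and were added by the authors as 2 extra sequences.

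The 23346 Drop-seq cells that passed the limits held 71755096 UMIs, and totals per gland ranged from 650301 to 6994504. Among them were 3569 EYFP UMIs in 2698 cells, or 11.6% of cells and 49.7 CPM, where CPM are UMIs per 1000000 UMIs of the cells summed. Cre had 219 UMIs in 186 cells, or 0.797% of cells and 3.05 CPM. One UMI was all that was seen in 75.8% of the EYFP cells and in 91.9% of the Cre cells, and the highest counts in a cell were 6 for EYFP and 9 for Cre. Control cells were deeper than double-mutant cells, with medians of 2062 and 1151 UMIs, so levels are given in CPM and shares of cells with a UMI only with their depth. Of 26968 different Drop-seq barcodes, 19 were found in more than 1 library. In 2 Drop-seq libraries Xist and Y-linked UMIs went against the labelled sex. These were double-mutant P40 replicate 1 and double-mutant P90 replicate 5, and some of the genotype differences of EYFP are also given without 1 or both of them. Both were of batch B11. The former, labelled male, held 591 Xist and 1 Y-linked UMIs, and the latter, labelled female, held 0 and 194. Whether these 2 libraries were exchanged, which would also exchange their stages, was not tested. Leaving out either of them changed no call in the comparisons of cells of the same gland. Of the CITE-seq libraries, control P70 replicate 1, labelled male, held 151 Xist and 60 Y-linked UMIs, and control P70 replicate 2, labelled female, held 165 and 71, so that both carried signs of both sexes and the former went against its label by the same rule. The double-mutant P70 libraries, both labelled female, held 16 and 14 Y-linked UMIs. Of the Y-linked UMIs, 25 and 36 in the control and 16 and 6 in the double-mutant libraries lay in 1 unnamed cluster, which is described below.

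EYFP was first compared between genotypes, over whole glands. In the 12 control glands it ranged from 0 to 179 CPM (median 70.4, mean 72.5 ± 41.2 SD), and in the 14 double-mutant glands from 0 to 179 (median 16.9, mean 34.2 ± 47.9 SD). The ranges overlapped fully, but most double-mutant glands lay below most control glands. The mean difference was −38.3 CPM (two-sided permutation test over 26 glands, p = 0.0375), and it did not pass after adjustment over the 18 tests of this kind in these data (adjusted p = 0.135). It was lower in double-mutant glands in each of the 5 batches with both genotypes, by 46.3, 103, 70.1, 10.7 and 39.0 CPM in B8, B9, B12, B13 and B14, with 3 or 4 glands a batch. The control glands of the last 3 batches were all P40, while the double-mutant glands of B12 and B13 were of both stages. In B13 both double-mutant P40 glands (58.4 and 64.2) lay above its control P40 gland (55.6), and the batch mean was lower through its double-mutant P90 gland (12). With glands permuted within these batches, the difference was −48.3 (permutation test, p = 0.00654), and this test mixes stages in the same way. Among glands of the same batch and stage, a split added after the values were seen, the double-mutant mean was lower in 4 of 5 sets and the difference over 17 glands was −44.3 (permutation within batch and stage, p = 0.019). Without the 2 libraries of unmatched sex the difference was −33.3 (permutation test, p = 0.0903), and control P90 replicate 6 alone left out gave −28.6 (permutation test, p = 0.0821). The same test had p from 0.0518 to 0.06 without 1 of control P90 replicates 1 and 5, double-mutant P40 replicates 1, 4 and 7 or double-mutant P90 replicates 1, 2, 5, 6 and 7. With library sizes corrected by TMM, edgeR's scaling for RNA composition, the difference was −60.3 (permutation test, p = 0.00037).

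Set beside all genes, EYFP was among those lower in double-mutant glands. A fit over the 15822 genes with at least 30 UMIs, which held sex and stage constant, put it at a log2 fold change of −1.91 (SE 0.61, edgeR quasi-likelihood adjusted p = 0.0307). Of all tested genes 16.2% passed at an adjusted p of 0.05, and 4.78% did so with lower values in double-mutant glands. Cre did not pass (log2 fold change −0.83, SE 0.35, adjusted p = 0.0982). In such whole-gland sums, less RNA per cell and fewer cells of a type cannot be told apart. With batch as a covariate EYFP was at −3.57 (SE 0.86, edgeR adjusted p = 0.0353), in a fit that called 292 genes. Leaving out double-mutant P90 replicate 2, double-mutant P90 replicate 6 or control P40 replicate 4 moved the adjusted p of EYFP to 0.0525, 0.055 and 0.0524 by the same test.

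EYFP was then compared within each stage, a split that was added after the values had been seen. At P90 EYFP ranged from 57.0 to 179 CPM in the 6 control glands (median 74.7) and from 0 to 27.4 in the 7 double-mutant glands (median 12). No double-mutant gland reached the lowest control gland. The means were 91.1 ± 44.9 (SD, n = 6) and 13.9 ± 11.1 (SD, n = 7), a difference of −77.2 (exact two-sided permutation test, p = 0.000583, the smallest p that 6 glands against 7 allow, adjusted p = 0.00583 over 10 tests). Among the 15822 genes, 0.183% were without overlap and lower in double-mutant glands at P90, and 0.916% were without overlap and higher. Leaving out each P90 gland in turn gave differences from −84.0 to −59.6, and without replicate 5, the library of unmatched sex, it was −74.8 (exact permutation test, p = 0.00216). Control and double-mutant P90 glands shared batches B8 and B9 only.

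At P40 the picture was mixed. The 6 control glands ranged from 0 to 77.3 CPM (median 64.6), and 5 of them lay at or above 42.3. The 7 double-mutant glands fell into 3 glands with 0.88, 3.20 and 8.11 and 4 glands with 58.4, 64.2, 67.6 and 179. The upper 4 were thus as high as the control glands and the lower 3 far below 5 of them. The means were 53.9 ± 29.6 (SD, n = 6) and 54.4 ± 62.4 (SD, n = 7), with a difference of 0.57 (exact permutation test, p = 0.984) whose sign turned with the scaling (−36.2 with TMM) and without double-mutant P40 replicate 2 (−20.1). Without double-mutant P40 replicate 1, the library of unmatched sex and 1 of the lower 3 glands, the difference was 8.29 (exact permutation test, p = 0.82). Of all genes 0.0253% were without overlap and lower in double-mutant glands at P40, and 1.95% higher. The genotype difference at P90 minus that at P40 was −77.7 CPM (permutation of genotypes within stages, p = 0.0364, adjusted p = 0.182). Between the stages themselves, EYFP at P90 minus P40 was 37.2 in control glands (6 against 6, exact permutation test, p = 0.106) and −40.5 in double-mutant glands (7 against 7, exact permutation test, p = 0.074). The P40 controls were from batches B12 to B14 and the P90 controls from B7 to B9, and for them a stage effect and a batch effect cannot be told apart.

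**Figure D1:**
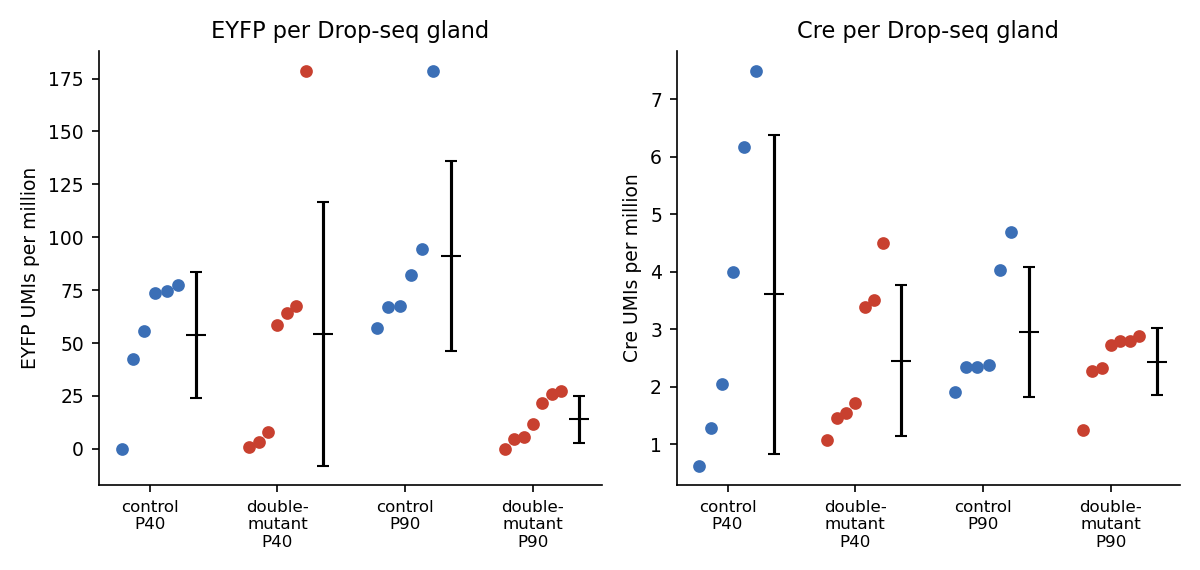
EYFP (left) and Cre (right) in CPM in each of the 26 Drop-seq glands, one point per gland in order of its value, control in blue and double-mutant in red, with the mean and SD of each group beside its points. EYFP in the 7 double-mutant glands at P90 lies between 0 and 27.4, below all 6 control glands of that stage, while at P40 it spans 0.88 to 179; the Cre values of the 4 groups overlap.

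At P90 EYFP was lower in double-mutant glands in each of 3 cell classes. Clusters were found without EYFP, Cre and Krt14 and were named by marker lists, with "-like" to mark that the names are rebuilt. Epithelial-like cells are those of the clusters named acinar, luminal, ductal, basal, myoepithelial or tumor types. Unnamed clusters, called here by their leading gene, are in none of the classes. In epithelial-like cells EYFP had 80.8 ± 36.2 CPM in control (SD, n = 6, range 54.5 to 151) and 11.6 ± 9.73 in double-mutant glands (SD, n = 7, range 0 to 27.3), with exact permutation p = 0.000583. In immune-like cells, of glands with at least 10 of them, it had 170 ± 69.4 (SD, n = 5, range 74.5 to 267) and 22.1 ± 25 (SD, n = 7, range 0 to 56.2), with exact permutation p = 0.00126. Stromal-like cells (endothelial, fibroblast, pericyte) had 271 ± 204 (SD, n = 4) and 9.71 ± 15.2 (SD, n = 7), with exact permutation p = 0.00303. Among glands with at least 10 cells, each p was the smallest its design allows (adjusted p of 0.0035, 0.00379 and 0.00606 over 6 tests). The 3 classes come from the same glands, so they are no separate evidence. The lowest immune-like control value rests on 1 EYFP UMI in 13418 UMIs, where a count of 0 would allow up to 224 CPM. The limit of 10 cells left out control P90 replicate 3 for immune-like cells (0 EYFP UMIs in 19992) and replicates 3 and 4 for stromal-like cells (0 in 6356 and 0 in 10115). With these glands included the groups overlapped in both classes, and the differences were −120 (exact permutation p = 0.00816) and −171 (exact permutation p = 0.021). Without replicate 5, the differences in the 3 classes were −67.2, −145 and −260 (exact permutation p of 0.00216, 0.00216 and 0.00476). At P40 none of the 3 classes passed (exact permutation p of 0.799, 0.62 and 0.955).

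Single cell types at P90 had the same direction. Basal-like cells, which lie at the base of the ducts, had 402 EYFP CPM in control and 27.3 in double-mutant glands when pooled over glands (95% Poisson intervals 325 to 491 and 11.8 to 53.9). Endothelial-like cells, which line the vessels, had 415 (292 to 571) and 4.41 (0.112 to 24.6). Myeloid-like cells had 187 (145 to 238) and 13.1 (6.54 to 23.5). Acinar-like cells, which secrete saliva proteins, had 53.1 (47.9 to 58.7) and 11.8 (9.41 to 14.6). EYFP was the higher in control cells in 11 of the 11 types that had at least 50 cells of each genotype at P90, and in 8 of 13 at P40. At P90 the intervals overlapped in the cluster led by Gm15564, with 50.3 (30.7 to 77.7) in control and 26.5 (14.9 to 43.8) in double-mutant glands. The cells of one type come from the same glands as those of the other types, so these counts are no independent evidence, and the intervals cover counting error only.

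**Figure D2:**
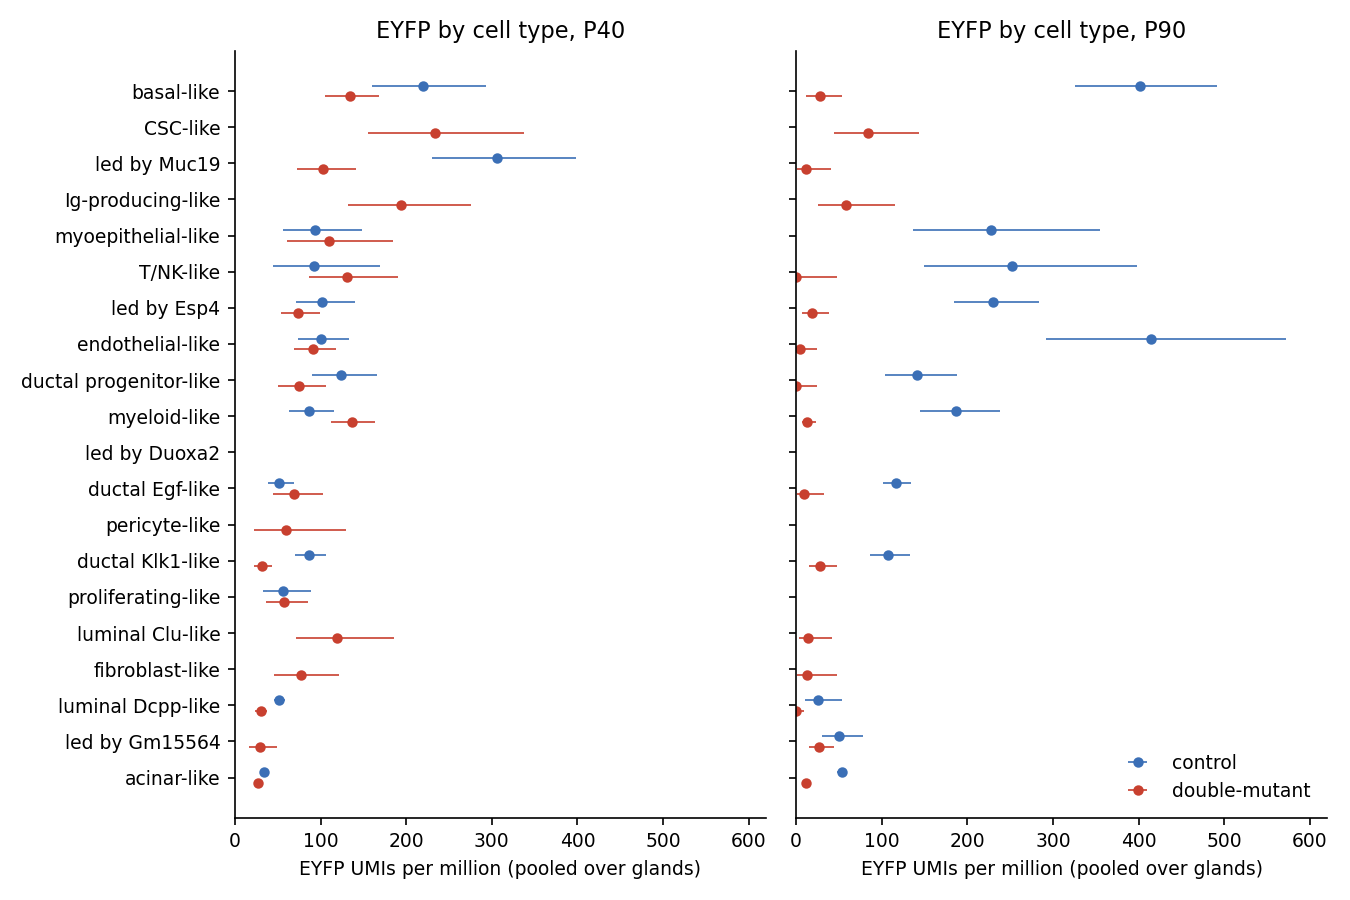
EYFP in CPM by cell type at P40 (left) and P90 (right), UMIs pooled over the glands of a group, control in blue and double-mutant in red, bars giving 95% Poisson intervals, groups with at least 50 cells shown. At P90 the control value is the higher in 11 of 11 types with both genotypes, for example 402 against 27.3 in basal-like and 53.1 against 11.8 in acinar-like cells. The intervals overlap in the cluster led by Gm15564 (50.3 against 26.5).

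Of the 3 types with the highest Krt14, all were among the 5 with the highest EYFP, whether UMIs were pooled over glands or each gland weighed the same. The other types ranked there had little Krt14. The cluster led by Muc19 had 0.198 Krt14 UMIs per 100 cells, Ig-producing-like cells 3.11 and endothelial-like cells 2.08, against 117 in basal-like cells. Pooled over all 26 glands, basal-like cells were highest with 173 EYFP CPM, followed by CSC-like cells (149), named after the study's cancer stem cells, the cluster led by Muc19 (133), Ig-producing-like cells (124) and myoepithelial-like cells (122), the contractile cells around the acini. T/NK-like cells had 119, endothelial-like cells 101, myeloid-like cells 93.0, Egf-high ductal cells 84.8 and Klk1-high ductal cells 65.7. Fibroblast-like cells (51.8), luminal Dcpp-like cells (41.5) and acinar-like cells (31.5) were at the lower end. Pooling gives large glands more weight, and some types, such as CSC-like and Ig-producing-like cells, came mostly from double-mutant glands. As means over glands with at least 10 such cells the order changed, to 170 in basal-like cells (21 glands), 169 in the cluster led by Muc19 (14 glands), 141 in CSC-like (8 glands), 132 in myoepithelial-like (13 glands), 116 in endothelial-like (22 glands) and 104 in T/NK-like cells (16 glands). Ig-producing-like cells, at 85.7 (6 glands), then came below the cluster led by Esp4 (96.8), Egf-high ductal cells (93.3) and myeloid-like cells (87.5). No tested pair of neighbors in the pooled order passed a comparison over the glands they shared (two-sided sign-flip permutation tests, adjusted over 29 pairs of both genes, of which the smallest adjusted p was 0.906). The acinar-like cells held 37.7% of all EYFP UMIs and 59.5% of all UMIs.

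Within glands, the basal end of the epithelium exceeded the acinar end. Basal-like and myoepithelial-like cells together had 143 ± 142 EYFP CPM (SD, n = 22 glands, range 0 to 555) and acinar-like cells of the same glands 30.1 ± 26.8 (range 0 to 88.1). The former were higher in 17 glands, lower in 3 and equal in 2, where both were at 0. The mean difference was 113 (sign-flip permutation test, p = 4e-05, adjusted p = 0.00045). Counted per cell, the means were 21 and 15.9 UMIs per 100 cells (permutation test, p = 0.017). Acinar-like cells held a median of 3706.5 UMIs and basal-like cells 701. In epithelial-like cells with at least 1 Krt14 UMI, EYFP had 133 ± 143 CPM against 41.0 ± 34.6 in those without one (SD, n = 22 glands), higher in 16 glands and lower in 5 (permutation test, p = 8e-05, adjusted p = 0.00048). This comparison overlaps with the one before, as 4.79% of all cells with a Krt14 UMI were acinar-like, against 33.0% of all cells.

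Basal-like and myoepithelial-like cells also differed by genotype. In 9 control glands with at least 10 such cells, EYFP ranged from 103 to 555 CPM (median 182, mean 241 ± 144 SD). In 13 double-mutant glands it ranged from 0 to 277 (median 34.7, mean 75.3 ± 97.9 SD), with 5 of them at 0. The difference was −166 (exact permutation test, p = 0.00287, adjusted p = 0.0129), and −153 without the libraries of unmatched sex (exact permutation test, p = 0.00898). Control P40 replicate 5 had too few such cells to enter. This test takes both stages together. Pooled over P40 glands, basal-like cells had 219 CPM in control and 134 in double-mutant glands, and myoepithelial-like cells 93.8 and 110. At P90 these values were 402 and 27.3, and 227 and 0, the last on 14391 UMIs. Whether the difference in these cells depends on stage was not tested.

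In the double-mutant glands, EYFP was found in tumor epithelium. CSC-like cells and luminal Clu-like cells, with 1 cell of each in control glands, had 106 ± 135 CPM against 75.5 ± 105 in basal-like cells of the same glands (SD, n = 11). The tumor cells were higher in 7 glands, lower in 3 and equal in 1, and the mean difference of 30.3 did not pass (permutation test, p = 0.295, adjusted p = 0.492). With at least 30 cells of both kinds required, 7 glands were left and the difference turned to −18.5 (exact permutation test, p = 0.562). Pooled over double-mutant glands, EYFP in CSC-like cells was 234 CPM at P40 (28 UMIs) and 83.9 at P90 (13 UMIs, 5 of them in 1 cell). Luminal Clu-like cells had 119 at P40 (19 UMIs) and 14.3 at P90 (3 UMIs). EYFP was not particular to tumor cells, as Ig-producing-like cells of these groups had 194 and 58.5, and myeloid-like cells 136 and 13.1.

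EYFP was not limited to epithelium. Immune cells are not known for Krt14 expression, and their transcripts served as a reference for RNA that is free in the suspension. In 25 glands with at least 10 cells of both classes, immune-like cells had 87.8 ± 83.1 EYFP CPM (SD, range 0 to 267) and epithelial-like cells 43.1 ± 40.7 (range 0 to 151). The epithelial-like class leaves out the unnamed clusters led by Muc19, Esp4 and Duoxa2, with pooled values of 133, 101 and 88 CPM. The immune-like value was the higher in 19 glands, the lower in 4 and equal in 2, where both were at 0. The mean difference of epithelial-like minus immune-like was −44.7 (sign-flip permutation test, p = 5e-05, adjusted p = 0.00045). Per cell the direction turned, with 15 UMIs per 100 epithelial-like and 13.4 per 100 immune-like cells (permutation test, p = 0.334). At a fixed depth of 500 UMIs, 2.69% ± 2.73 of epithelial-like and 5.04% ± 5.17 of immune-like cells had an EYFP UMI (SD, n = 25 glands, higher in 16 immune-like and lower in 7, permutation test, p = 0.00062). This measure is again per UMI and no independent check of the CPM. Cells under 500 UMIs drop out of it, which over all glands kept 14811 of 15850 epithelial-like and 2084 of 3244 immune-like cells. Without thinning the pooled shares stood the other way, at 12.6% and 7.86%, with median depths of 2105.5 and 654.5 UMIs. The contrast did not pass a test for a difference between genotypes (−35.7 ± 49.5 in 14 double-mutant and −56.2 ± 50.2 in 11 control glands, permutation test, p = 0.31).

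The transcripts of acinar cells gave a yardstick for free RNA. The 7 acinar markers together made up 193020 CPM in acinar-like and 44579 in immune-like cells, which is 23.1% of the acinar level. EYFP in immune-like cells was at 316% of its acinar level, but acinar-like cells had the lowest pooled EYFP of all Drop-seq types. At 99.5 CPM immune-like cells lay below basal-like cells at 173, so the percentage depends on the cells taken as source. Whether free RNA gave the EYFP of immune-like cells was not tested. In percent of the acinar level, stromal-like cells had 36.4% for the acinar markers and 275% for EYFP. Per 1000 acinar-marker UMIs there were 0.163 EYFP UMIs in acinar-like, 2.23 in immune-like and 1.24 in stromal-like cells, so the ratio differed between the classes. Krt14 in immune-like cells was at 1.4% of its basal-like level (17.6 against 1257 CPM). Barcodes left out by the limits on genes and mitochondrial UMIs had 27.4 EYFP CPM (95% Poisson interval 22.3 to 33.5), below the immune-like cells. They held a median of 781 UMIs, against 654.5 in immune-like cells, so they cannot stand for empty droplets and give no level of free RNA. By gland the acinar markers in immune-like cells ranged from 1.24% to 83.1% of the acinar level (median 14.3%, n = 25). In double-mutant P40 replicate 2, the gland at 1.24%, immune-like cells had 69 EYFP UMIs in 266512 UMIs, or 259 CPM, against 139 in its epithelial-like cells. In double-mutant P90 replicate 1, in contrast, no EYFP UMI was found in 173329 UMIs of immune-like cells, which allows up to 17.3 CPM, whereas its epithelial-like cells had 21.5.

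In CITE-seq, for which cells were not fixed in methanol, EYFP per UMI was higher in immune-like than in epithelial-like cells in 3 of 4 glands. The control glands had 53.8 and 43.1 EYFP CPM over all cells and the double-mutant glands 20.9 and 10.4, with 2 glands each and no test. Immune-like cells had 174 and 116 CPM in the control glands, where epithelial-like cells had 46.6 and 45.5. In the double-mutant glands they had 39.96 and 10.2, against 14.8 and 16.4. The acinar markers in immune-like cells were at 1.94% of the acinar level here, and EYFP at 162%. Krt14 had no UMI in 897192 UMIs of immune-like cells, which allows up to 3.34 CPM. One unnamed cluster of 191 cells, led by the pseudogene CH25-626J19.2 and present in all 4 glands, had neither an EYFP nor a Cre UMI in 614456 UMIs, which allows up to 4.88 CPM. By the study's methods human HEK cells were added to these suspensions, and whether this cluster holds such cells was not tested. It is part of the values over all cells above, and without it the control glands had 59.3 and 50.4 EYFP CPM and the double-mutant glands 22.7 and 11.2.

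**Figure D3:**
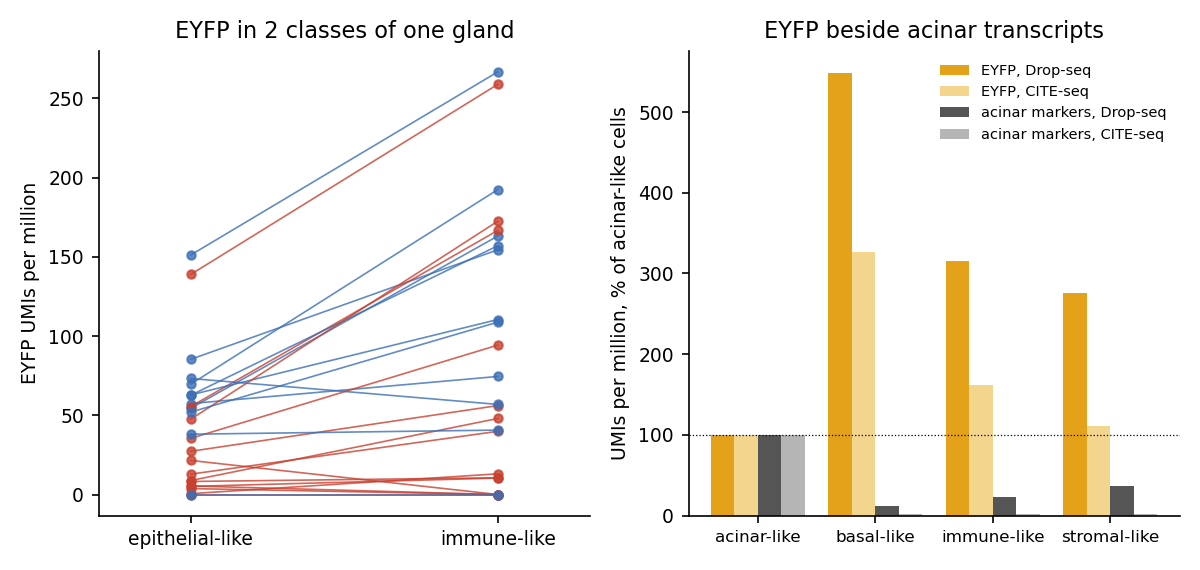
Left, EYFP in CPM in epithelial-like and immune-like cells of the same 25 Drop-seq glands, 1 line per gland, control in blue and double-mutant in red. Right, pooled EYFP and the sum of 7 acinar markers, each in percent of its level in acinar-like cells (dotted line at 100). In immune-like cells EYFP stands at 316% in Drop-seq and 162% in CITE-seq, where the acinar markers stand at 23.1% and 1.94%. Acinar-like cells are the lowest type for EYFP in Drop-seq.

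Cre was found at a low level in every gland. In the 12 control glands it ranged from 0.63 to 7.50 CPM (median 2.37, mean 3.28 ± 2.05 SD) and in the 14 double-mutant glands from 1.07 to 4.50 (median 2.53, mean 2.45 ± 0.98 SD). The groups overlapped. By glands the difference was −0.83 (permutation test, adjusted p = 0.387), but with library sizes corrected by TMM it was −2.24 (permutation test, unadjusted p = 0.0218). The difference was −1.15 at P40 (exact permutation test, p = 0.353) and −0.51 at P90 (exact permutation test, p = 0.323). The most Cre UMIs in a gland were the 39 of control P40 replicate 5, at 6.17 CPM.

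Over cell types, Cre and Krt14 had different orders. Basal-like cells had 2.36 Cre CPM (3 UMIs) and acinar-like cells 2.77 (118 UMIs), while their Krt14 was at 1257 and 1.29. Myoepithelial-like cells, with 857 for Krt14, had 2.40 (1 UMI), and CSC-like cells, with 319 for Krt14, had no Cre UMI in 275483 UMIs, which allows up to 10.9 CPM. The highest values were those of the clusters led by Muc19 (9.37, 7 UMIs) and Esp4 (8.21, 14 UMIs) and of ductal progenitor-like cells (7.15, 9 UMIs). Immune-like cells had 1.19 (4 UMIs, 95% Poisson interval 0.325 to 3.05) against 2.99 in epithelial-like cells. T/NK-like, Ig-producing-like and pericyte-like cells had none. Over the 16 named types Pearson's r on log2(CPM + 1) was −0.15 between Cre and Krt14, 0.61 between EYFP and Krt14 and −0.43 between EYFP and Cre, values that share libraries and depth and carry no test.

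**Figure D4:**
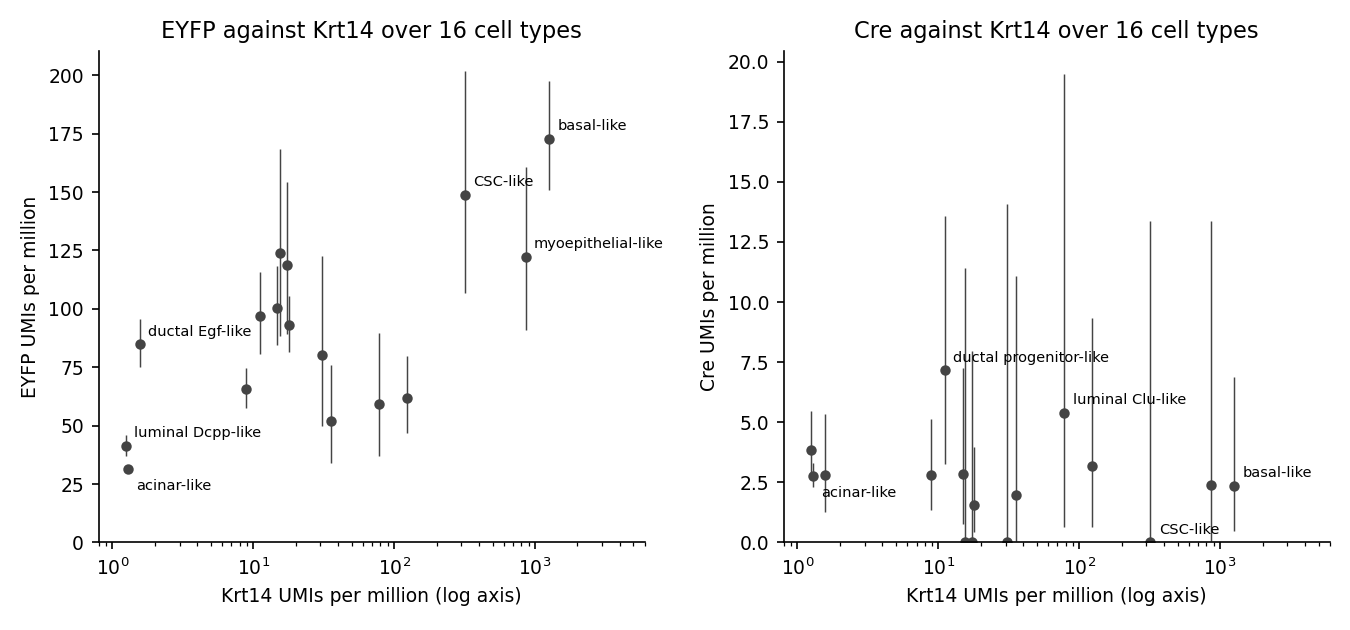
EYFP (left) and Cre (right) in CPM against Krt14 (log axis) over the 16 named Drop-seq cell types, UMIs pooled over 26 glands, bars giving 95% Poisson intervals. EYFP runs from 31.5 in acinar-like to 173 in basal-like cells, whereas Cre is 2.77 and 2.36 in these types.

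Within glands the comparisons of Cre did not pass. Basal-like and myoepithelial-like cells had 2.50 ± 5.75 CPM and acinar-like cells 2.50 ± 2.76 (SD, n = 22 glands), on 4 and 71 UMIs (permutation test, p = 0.9996). Krt14-positive epithelial-like cells had 2.05 ± 4.50 and Krt14-negative ones 2.83 ± 1.97 (SD, n = 22 glands, permutation test, p = 0.427). Epithelial-like cells had 2.83 ± 1.93 and immune-like cells 1.75 ± 4.54 (SD, n = 25 glands), higher in epithelial-like cells in 20 glands and lower in 4 (permutation test, p = 0.328). Without control P90 replicate 2, whose immune-like cells had the highest value of 18.1 on 1 UMI, the epithelial-like cells were higher by 1.85 (permutation test, p = 0.0193). In basal-like and myoepithelial-like cells, 12 of 13 double-mutant and 6 of 9 control glands had no Cre UMI (difference −4.55, exact permutation test, p = 0.0545).

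Cells with Cre were deep cells. Their median was 5688 UMIs against 1514 in cells without a Cre UMI, 51.1% of them were acinar-like, and 3.23% had a Krt14 UMI, where 4.74% of all cells had one. An EYFP UMI was seen in 28.0% of them and in 11.4% of the others, and the 52 cells with both held a median of 11202.5 UMIs. The 5 cells with 3 or more Cre UMIs were 4 acinar-like cells and 1 luminal Dcpp-like cell, each with at least 15064 UMIs. Of them, 3 came from control P40 replicate 5 and none of the 5 had a Krt14 UMI. Cells with EYFP held a median of 3156 UMIs against 1405.5 without, and 7.01% of them had a Krt14 UMI.

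Of 3 relations across glands, neither of the 2 that involve Cre passed its test, and the third, EYFP with Gt(ROSA)26Sor, did and is given after them. Cre with Krt14 gave a Pearson's r of −0.15 (permutation p = 0.457) and a Spearman's rho of −0.07 (p = 0.752) over 26 glands, −0.08 without the 2 glands farthest from the median of Krt14, and 0.09 within 12 control and −0.18 within 14 double-mutant glands. EYFP with Cre gave r of −0.04 (permutation p = 0.848) and rho of −0.16 (p = 0.438), 0.01 without the 2 farthest glands, −0.07 within control and −0.35 within double-mutant glands. Centred within batches, r was −0.11 and −0.03. Adjusted over 3 relations, the permutation p-values of both were 0.657 or more.

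Gt(ROSA)26Sor, the transcript of the locus that holds the reporter, split the glands into separate ranges. In 9 glands it had 0 to 2 UMIs, or 0 to 1.73 CPM, and in the other 17 glands 7 to 87 UMIs, or 3.56 to 15.7 CPM. Total UMIs ran from 650301 to 6512411 in the low and from 691944 to 6994504 in the high range. The flanking genes Thumpd3 (4.95 to 15.5 against 5.43 to 17.7 CPM) and Setd5 (17.0 to 59.97 against 13.3 to 63.6) overlapped between them. The low range held 4 control and 5 double-mutant glands, the latter all at P40, from batches B9, B11, B12, B13 and B14. EYFP was at 58.4 to 179 in 8 of these 9 glands and at 8.11 in double-mutant P40 replicate 1, a library of unmatched sex. In the high range, 7 of 8 control glands had 42.3 to 94.3 and the remaining one 0, while the 9 double-mutant glands had 0 to 27.4. Thus, by the labels, all 7 double-mutant glands at P90 were in the high range, and stage and range move together there. Of the 2 libraries of unmatched sex, both of batch B11, P40 replicate 1 was in the low and P90 replicate 5 in the high range. Over all 26 glands EYFP and Gt(ROSA)26Sor were negatively related (permutation p adjusted over 3 relations of 0.017 for Pearson's r and 0.0163 for Spearman's rho), also without the 2 glands farthest from the median (permutation p = 0.016), within control glands (permutation p of 0.032 for r and 0.134 for rho), within double-mutant glands (0.0496 and 0.0261) and centred within batches (0.00036 and 0.00017). As the glands fall into 2 ranges, with a median EYFP of 73.5 CPM in the low and 25.9 in the high one, no coefficient over both is given. The line between the ranges was drawn after the values were seen. Within the low range Pearson's r was 0.46 (exact permutation test, p = 0.201) and Spearman's rho 0.27 (exact p = 0.481, n = 9), and within the high range r was −0.28 (permutation p = 0.271) and rho −0.32 (permutation p = 0.214, n = 17), and without the 2 glands farthest from the median r was −0.16 and −0.45. The part of the number of reporter alleles in this was not tested.

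**Figure D5:**
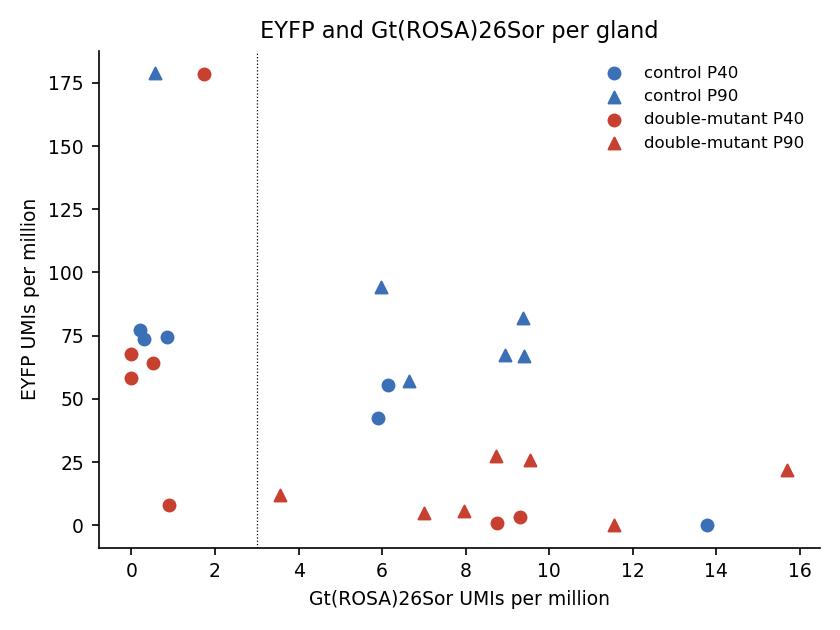
EYFP against Gt(ROSA)26Sor, both in CPM, in each of the 26 Drop-seq glands, control in blue, double-mutant in red, circles for P40 and triangles for P90, with a dotted line at 3. The 9 glands on the left have 0 to 2 Gt(ROSA)26Sor UMIs and the 17 on the right 7 to 87; on the right 7 of 8 control glands lie at 42.3 to 94.3 and the 9 double-mutant glands at 0 to 27.4.

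One control gland was without an EYFP UMI. Control P40 replicate 5 had no EYFP UMI in 6316913 UMIs, which allows up to 0.475 CPM, where the other 5 control glands of its group had 42.3 to 77.3. Its Cre, at 6.17 CPM, was the next to highest of the Drop-seq glands, its Gt(ROSA)26Sor was 13.8 and its Krt14 with 1.11 the lowest of them. Double-mutant P90 replicate 5, one of the libraries of unmatched sex, also had none in 691944 UMIs, which allows up to 4.34. The labels of both glands state nothing that sets them apart.

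The other genes of the K14 context and the floxed genes were read in the same fit of whole glands. Of the 5 genes of the basal program, 3 passed and all 3 rose in double-mutant glands, where 11.5% of all tested genes did. Trp63, a master regulator of basal cells, rose by 2.01 on the log2 scale (SE 0.46, adjusted p = 0.00428 by edgeR's quasi-likelihood test). Krt5, the pairing partner of Krt14, rose by 1.29 (adjusted p = 0.0333) and Krt17 by 1.35 (adjusted p = 0.0213). Krt14 itself was at 0.86 (SE 0.39, adjusted p = 0.127) and Krt15 at 0.48 (adjusted p = 0.626). With batch as a covariate none of the 3 passed, Trp63 being at 2.01, Krt17 at 1.39 and Krt5 at 1.299 (edgeR adjusted p of 0.0558, 0.104 and 0.123). With the replicate block Krt14 passed, at 1.17 (edgeR adjusted p = 0.0201), and so it did without the filter on low counts (adjusted p = 0.0174) or without double-mutant P90 replicate 7 (adjusted p = 0.0381). Krt5 lost its call without any 1 of 11 glands (edgeR adjusted p of 0.0507 to 0.0623), namely control P90 replicates 2 and 3, control P40 replicates 3 to 6, double-mutant P90 replicates 2, 5 and 6 and double-mutant P40 replicates 1 and 2. None of Gt(ROSA)26Sor, Thumpd3 and Setd5 passed in this fit, which uses TMM (−0.59, −0.33 and −0.14), nor did Ctnnb1 (0.30) or Bmpr1a (−0.23). Ctnnb1 and Bmpr1a have Cre-dependent alleles, whose deleted exons counts of transcript ends do not show. In CPM without TMM, the mean of each of these genes was higher in double-mutant than in control glands. The means were 6.09 against 5.68 for Gt(ROSA)26Sor, 10.3 against 8.18 for Thumpd3 and 33.7 against 21.97 for Setd5. For Ctnnb1 they were 112 against 54.5 and for Bmpr1a 24.3 against 17.2. Except for Ctnnb1, the sign thus differed between the fit and the CPM means.

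By their profile over the 16 named types, the genes most like EYFP were Ssrp1, Vcp, Rpl3, Mysm1 and Anp32e, with Pearson's r from 0.84 to 0.85 among 3954 genes. These encode a histone chaperone subunit, an ATPase of protein quality control, a ribosomal protein, a histone deubiquitinase and another histone chaperone, genes that most cells use. Krt14 stood at rank 1065 (r = 0.58). The genes most like Cre were Tcn2, which carries vitamin B12, the potassium channel gene Kcnk1, Gde1, Svip and Plet1, with r from 0.75 to 0.88, and Krt14 stood at rank 2776 (r = −0.13). Such ranks over 16 types rest, for Cre, on 219 UMIs.

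In bulk RNA, EYFP had 1100 of 34515744 reads in the control gland and 314 of 34729551 reads in the double-mutant gland, or 31.9 and 9.04 CPM (95% Poisson intervals 30.01 to 33.8 and 8.07 to 10.1). With 1 library a group this compares 2 glands of different age and has no replicate check. Cre had no read in either, which allows up to 0.0869 and 0.0864 CPM, while all Drop-seq glands and all 4 CITE-seq glands had Cre UMIs, with 1.36 to 5.97 CPM in the latter. In bulk, reads were counted over 1032 bases of a Cre sequence and 708 bases of EYFP, and Krt14 had 474 and 361 reads. Whether the single-cell tables used the same Cre sequence is not given in the sources used here, and its part in the gap was not tested.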

How the data were processed

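The authors deposited raw UMI counts per gene and barcode for each Drop-seq and CITE-seq gland, made with Drop-seq tools and STAR on mm10 with GENCODE vM7 plus Cre and EYFP sequences, and raw bulk read counts per gene made with STAR and featureCounts. Human cells were added to CITE-seq, and by the study's methods they were to be removed by an alignment to both genomes. Whether the deposited tables still hold some was not tested. No count was normalized. Antibody tag counts were not used.

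Barcodes with at least 100 genes and under 15% mitochondrial UMIs were kept (under 2500 genes in CITE-seq), which left 23346 of 26987 and 2535 of 3095. Cells were clustered (scanpy 1.11.5, leidenalg 0.10.2, 2000 genes, 30 components, 20 neighbors, resolution 1.0) without the members and Krt14. A cluster was named by at least 3 markers at 2-fold in 10% of cells. Scrublet called 0.583% of Drop-seq cells doublets, which were kept in the main values. Levels are sums over a gland, or over a class with at least 10 cells in a gland, divided by all UMIs of the same cells and given per 1000000 (CPM). This scale falls in cells rich in secretory RNA.

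The gland was the replicate. Labels do not say whether glands came from separate mice, so p-values measure the spread between glands. Tests were two-sided permutation tests, exact below 10 glands in a group and with 100000 resamples otherwise, with Benjamini-Hochberg adjustment. Paired classes used sign flips. The interaction used 10000 resamples. edgeR 4.0.16 (TMM, sex and stage as covariates) was the test over all genes, checked on simulated data, and DESeq2 1.42.0 an alternative. Intervals are Poisson at 95%, and a count of 0 allows 3 counts. Both cover counting error only. Genes were named by a rule: EYFP, Cre, the K14, Rosa26 and floxed lists, and the 5 genes most like each member, with at least 1000 UMIs and log2(CPM + 10). Coordinates are from GENCODE vM21, which has the same build. Members, lists and tests were chosen with earlier results of these data known. No sequence of EYFP or Cre is shown.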

Additional observations from a re-analysis of the deposited data

Results flagged for a closer look

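EYFP in control P90 replicate 6 was 179 CPM, set apart from the other 5 glands of its group, which lay between 57.0 and 94.3. EYFP in double-mutant P40 replicate 2 was likewise 179, apart from the other 6 at 0.88 to 67.6. Cre in double-mutant P90 replicate 4 was 1.25, below the other 6 at 2.28 to 2.89, and rests on 1 UMI. A Dixon test at the 95% level marks about 1 in 20 groups by chance. The genotype difference of EYFP differed between P90 and P40 by −77.7 CPM (permutation of genotypes within stages, p = 0.0364), and this comparison was chosen after the values were seen.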

How the results depend on the processing

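Of 567 values recomputed under an alternative, 501 kept their direction and their side of 0.05. Differences are in CPM unless said, and the cause of a change was not tested unless the setting states it. The replicate numbers did not pair the glands (r of −0.36 to 0.59 in 12 pairs, 5 over 0.1). With the replicate block, EYFP between genotypes was −38.3 (permutation p = 0.0609), Cre in the fit over all genes was −1.16 on the log2 scale (edgeR adjusted p = 0.0198), and 3910 genes were called, against 292 with batch as a covariate and 2568 without either. EYFP between genotypes lost its unadjusted call in immune-like cells alone (−48.3) and without the 2 libraries of unmatched sex (−33.3), and ranged from −49.4 to −28.6 over glands left out one at a time. Cre between genotypes gained one with TMM (−2.24). At P40, a split added after the values were seen, EYFP turned to −2.68 with all barcodes, −36.2 with TMM, −0.48 on the log2 scale and −7.47 per 100 cells, and ranged from −20.1 to 9.49 over glands left out. For P90 minus P40, EYFP in double-mutant glands ranged from −49.4 to −19.8 and Cre from −1.25 to 0.12 in control and from −0.25 to 0.32 in double-mutant glands. The latter turned to 0.45 with all barcodes, 0.0604 on the log2 scale and 0.25 without the unmatched libraries. Epithelial-like minus immune-like EYFP turned to 1.57 per 100 cells. The same contrast of Cre passed as 0.205 UMIs observed minus expected and 0.865 per 100 cells, turned to −0.506 in cells thinned to 500 UMIs, and ranged from 0.801 to 1.85. Basal-like and myoepithelial-like minus acinar-like Cre, 0 to the second decimal, turned to −0.0423 and −0.684 at resolutions 0.5 and 1.5, −1.79 with cells gated by markers, −0.23 with at least 30 cells, −0.00031 observed minus expected, −0.22 thinned and −0.57 per 100 cells, and ranged from −0.98 to 0.50. Cre in Krt14-positive minus Krt14-negative cells passed when thinned (−3.82), and Cre in basal-like and myoepithelial-like cells turned to 1.33 with gated cells. Tumor minus basal-like EYFP turned to −18.5 with at least 30 cells. Cre with Krt14 turned to 0.094 within control glands, and EYFP with Cre to 0.0064 without the 2 farthest glands. In the fit over all genes, log2 fold changes ranged from −2.18 to −1.76 for EYFP and from −1.004 to −0.667 for Cre over glands left out, with Cre called without double-mutant P90 replicate 7. filterByExpr dropped Cre, so that setting gives no value. Depth limits Cre in every class but the acinar-like cells, as basal-like and myoepithelial-like cells held 4 Cre UMIs in all.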
